A study of Arabidopsis thaliana with 36 samples.

Results

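The response to tunicamycin was examined in Arabidopsis thaliana seedlings of the line bzip28/60, a double knockout of the transcription factors bZIP28 and bZIP60. The comparison was made by genotype and treatment, as 3 libraries of bzip28/60 seedlings given tunicamycin (Tm) against 3 libraries of bzip28/60 seedlings given the mock treatment, 6 of the 36 libraries of the study. All seedlings were 12 days old and were held for 6 h in water with 5 µg/ml of Tm or with an equal volume of its solvent DMSO, and whole seedlings were taken. Both groups therefore lack the same pair of factors, and Tm is the only difference between them that the labels give. RNA was sequenced from the 3′ end of the transcript. The study also treated wild type (WT) and the double knockouts bzip17/60, bzip17/28 and s1p/s2p in the same way, and WT with the agents AZC and DTT, with 3 libraries in each of 12 groups. WT, bzip17/60 and bzip17/28 are used here where the response of bzip28/60 is set against another.

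Misfolded proteins in the endoplasmic reticulum (ER) set off the unfolded protein response (UPR), which raises the transcription of ER chaperones, of folding enzymes and of the machinery for export and degradation. In plants it runs through an arm of membrane-anchored factors, bZIP28 and bZIP17, which move to the Golgi and are cut free by proteases, and through IRE1, which splices the mRNA of bZIP60. Tm blocks the first step of N-glycosylation and so hinders the folding of glycoproteins.

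The 6 libraries held 2069102 to 2557005 counts assigned to genes. Repeats of bzip28/60 varied little, with a biological coefficient of variation of 9.1% under mock and 5.83% with Tm, against 28.2% in the WT Tm libraries, which stood apart from all other groups. Levels are CPM, counts relative to the library size scaled by edgeR's TMM factors. Changes are log2 fold changes from edgeR's quasi-likelihood fit of all 36 libraries. Unless marked SD, the value after ± is an approximate standard error, the absolute change divided by the square root of its F statistic. It is unreliable for changes near 0. A gene is said to have risen or fallen where its p, adjusted by Benjamini-Hochberg over the 10480 genes tested, was under 0.05. Whether the repeats are separate cultures is not stated, and p-values therefore cover only the spread between these libraries, which may be technical. Shoot genes marked the tissue strongly, and LHCB3 stood at 5611 to 7609 CPM in the 6 libraries. Of 5 root markers, PHT1;1, CASP1, PRP3 and EXPA7 summed to 59.8 to 124 CPM and PIN2 had 0 counts in all 6.

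The genes named by the genotype were read first. BZIP60 (AT1G42990) stood at 36.4, 33.5 and 29.3 CPM in the mock libraries and at 31.9, 33.3 and 30.9 CPM with Tm (log2 fold change -0.05 ± 0.16, adjusted p = 0.967), where WT went from 114 to 142 CPM to 653 to 862 CPM. BZIP28 (AT3G10800) kept 9.63 to 14.6 CPM under mock and 8.95 to 11.2 CPM with Tm, against 21.3 to 29.0 CPM in WT mock. The 3′ reads that remain do not show whether a functional protein is made. BZIP17 (AT2G40950), the related factor that this line retains, stood at 8.22, 5.34 and 6.70 CPM under mock and at 8.95, 12.2 and 14.0 CPM with Tm, a difference that did not pass the test (0.77 ± 0.34, adjusted p = 0.347).

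Without bZIP28 and bZIP60, 254 genes changed with Tm, 2.42% of those tested, and 93 of them rose and 161 fell. In WT the same fit called 16.9% of genes, 906 that rose (8.65%) and 866 that fell (8.26%). This fit uses a common estimate of spread for all groups, although the WT Tm libraries varied far more than those of bzip28/60. The 2.42% and 16.9% are therefore not directly comparable, and the WT count was not run under other settings. The genes that rose in WT hardly moved in bzip28/60, with a median log2 fold change of 0.08 against 0.79 in WT, and 193 of the 906 had a lower response in bzip28/60 in the test of the difference itself. That difference was called for 4.24% of all genes, 219 with a higher (2.09%) and 225 with a lower response (2.15%) in bzip28/60. Of the 93 genes that rose in bzip28/60, 33 also rose in WT, which is 35.5% of the former and 3.64% of the latter. Of the 161 that fell, 77 also fell in WT, 47.8% of the former and 8.89% of the latter. Over the 161 genes the median was -0.85 in bzip28/60 and -0.56 in WT, and over the 93 it was 1.15 and 0.46. These sets were chosen by their value in 1 of the genotypes, which sets part of the gap.

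The number of calls depended on the libraries that set the spread. In bzip28/60 it was 136 without bzip28/60 Tm 1, 160 without bzip28/60 mock 1 and 168 without bzip28/60 Tm 2, and 706 (287 rose and 419 fell) when the 6 libraries were fitted alone. Scaling by library size alone gave 252 calls, 133 of which rose, in place of 93 of 254. The difference from WT gave 1188 calls without WT Tm 1, 248 without WT Tm 2, 239 without bzip28/60 mock 1, 269 without bzip28/60 Tm 1 and 272 without WT mock 1, in place of 444.

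**Figure D1:**
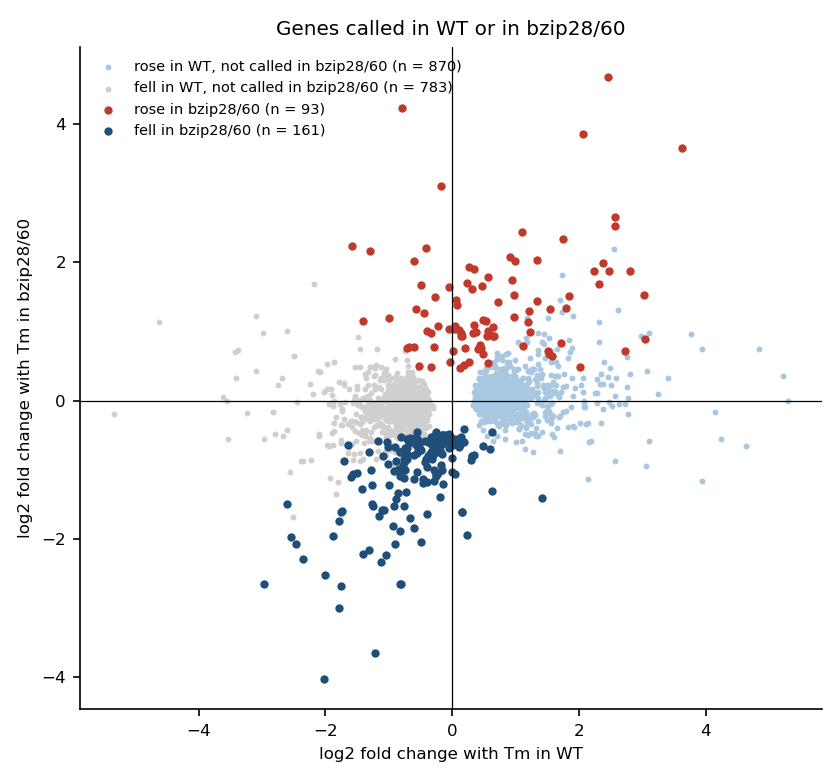
Log2 fold change with Tm in bzip28/60 (vertical axis) against that in WT (horizontal axis) for every gene called in either genotype, 1 point a gene, coloured by call. The 870 genes that rose in WT and were not called in bzip28/60 lie along the zero line of bzip28/60, while most of the 161 that fell in bzip28/60 lie below zero in both.

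The UPR itself was read on a panel of 21 genes of ER folding, degradation, glycosylation and vesicle traffic. The panel was chosen with its rise in WT known, so its gap to WT is in part fixed by that choice. In bzip28/60 only 4 of the 21 passed as risen and 0 fell, and 20 of the 21 had a lower response than in WT, all but SAR1A, which was near 0 counts. The difference from WT was lost for AT3G05230, TIN1 and NAC103 without bzip28/60 mock 1, and for SEC31A without bzip28/60 mock 3. For AT3G05230 it was also lost without WT Tm 3 and with only the libraries of the comparison (adjusted p up to 0.0864). The 4 were BIP1, CNX1, UTR1 and AT5G50460. BIP1 (AT5G28540), the main ER Hsp70 chaperone, which may share reads with the near-identical BIP2, stood at 116, 108 and 115 CPM under mock and at 189, 225 and 213 CPM with Tm. It rose by 0.89 ± 0.14 (adjusted p = 3.61e-05), and the groups did not overlap. In WT it went from 119.9 to 168 CPM to 887 to 1462 CPM, and the response of bzip28/60 differed from that of WT by -2.15 ± 0.20 (adjusted p = 2.25e-10).

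CNX1 (AT5G61790), a lectin chaperone that holds glycoproteins in the ER, stood at 153, 178 and 159 CPM under mock and at 277, 263 and 264 CPM with Tm. It rose by 0.72 ± 0.15 (adjusted p = 0.00191), against 2.73 ± 0.15 in WT. UTR1 (AT2G02810), which carries UDP-sugars into the ER, had the largest rise of the panel. It went from 10.2, 9.22 and 15.5 CPM to 33.9, 34.2 and 33.1 CPM (1.52 ± 0.23, adjusted p = 1.05e-05) without overlap, against 3.03 ± 0.20 in WT. AT5G50460, a Sec61 gamma subunit of the channel through which proteins enter the ER, went from 205, 227 and 222 CPM to 353, 357 and 312 CPM (0.65 ± 0.12, adjusted p = 0.00053). The close relative UTR3 (AT1G14360) also had no overlap, with 7.82 to 10.1 CPM under mock and 15.9 to 18.3 CPM with Tm, and did not pass the test (0.94 ± 0.31, adjusted p = 0.10).

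The rest of the panel gave no call. CRT1B (AT1G09210), a calreticulin of the same folding cycle as CNX1, stood at 64.0 to 82.9 CPM under mock and 56.2 to 70.8 CPM with Tm (-0.19 ± 0.18), where WT rose by 2.77 ± 0.18. The BiP partner ERDJ3B (AT3G62600) stood at 52.8 to 56.5 CPM and 42.6 to 57.2 CPM (-0.08 ± 0.16), against 2.52 ± 0.16 in WT. The disulfide isomerase PDIL1-2 (AT1G77510) stood at 23.0 to 24.7 CPM and 21.5 to 26.8 CPM (0.09 ± 0.21), against 3.24 ± 0.18 in WT. In each of these genes the mock and Tm libraries of bzip28/60 overlapped. The isomerase PDIL2-3 (AT2G32920, -0.10 ± 0.16), the BiP complex partner SDF2 (AT2G25110, 0.33 ± 0.16) and the signal peptidase subunit AT3G05230 (0.34 ± 0.35) did not pass either. For HRD3A (AT1G18260) of the ubiquitin ligase complex that degrades ER proteins the value was -0.33 ± 0.18, for the lectin OS9 (AT5G35080) of the same complex -0.04 ± 0.31, for the derlin DER2.1 (AT4G21810) -0.17 ± 0.14 and for GPT (AT2G41490), the enzyme that Tm inhibits, 0.06 ± 0.25. BI1 (AT5G47120), an ER protein that restrains cell death, stood at 208 to 229 CPM under mock and 269 to 303 CPM with Tm without overlap, yet did not pass (0.39 ± 0.12, adjusted p = 0.0897).

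Panel genes with the steepest WT rise stayed near the detection limit in bzip28/60. SAR1A (AT1G09180), the GTPase that starts COPII vesicle budding, had 1 count over the mock libraries and 2 over the Tm libraries, where WT went from 3 to 84 counts (31.3-fold higher, 95% counting interval 10.3 to 155, for counting error only). ARFA1D (AT1G70490), a small GTPase of vesicle traffic, stood at 2.74 to 5.44 CPM under mock and 1.70 to 3.28 CPM with Tm, against 104 to 186 CPM in WT Tm. TIN1 (AT5G64510) is named for its induction by Tm and stood at 0.485 to 1.96 CPM and 0.778 to 1.41 CPM, against 114 to 181 CPM in WT Tm. Of NAC103 (AT5G64060), a transcription factor known as a target of bZIP60, 5 counts were found under mock and 2 with Tm. SEC31A (AT1G18830), a subunit of the COPII coat, stood at 0 to 1.68 CPM and 0 to 1.17 CPM, against 38.0 to 42.4 CPM in WT Tm. Low levels were not particular to bzip28/60. In bzip17/60 Tm the means of SAR1A, ARFA1D, SEC31A and NAC103 were 0.137, 4.03, 0.948 and 0.702 CPM. TIN1 rose there, to a mean of 26.3 CPM, and in bzip17/28 all of these genes rose. The difference of NAC103 from WT (-5.10 ± 1.52, adjusted p = 0.0441) was lost when bzip28/60 mock 1, any bzip28/60 Tm library, WT mock 1, WT mock 2, WT Tm 2 or WT Tm 3 was left out, and over all alternatives its adjusted p ran up to 0.911. It was also lost with limma-voom, with the replicate number as a block and with only the libraries of the comparison.

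**Figure D2:**
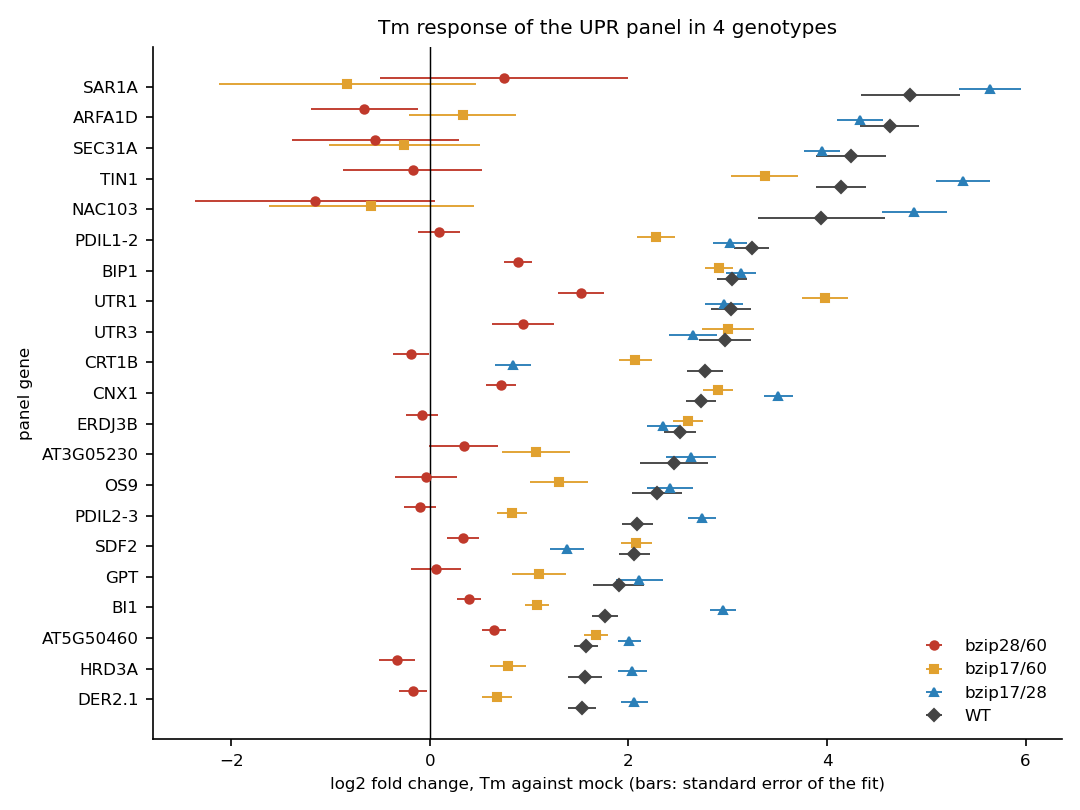
Log2 fold change with Tm of each panel gene (rows, ordered by the WT value) in bzip28/60, bzip17/60, bzip17/28 and WT, with the approximate standard error as bars. The bzip28/60 points sit between -1.16 and 1.52, left of the WT points in every row.

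The upstream sequence of a few of these genes shows the elements that UPR factors are known to bind. The 300 bases before the annotated start are printed 5′ to 3′ on the strand of the gene, from the RefSeq assembly TAIR10.1, whose annotation holds 97.3% of the model names used in the count files. Capitals mark either the ER stress element ERSE, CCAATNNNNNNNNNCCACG, or the element UPRE, TGACGTGG, searched on both strands. PDIL1-2 (chr1:29126348-29126647, plus strand), HRD3A (chr1:6282145-6282444, minus strand) and BI1 (chr5:19135652-19135951, plus strand) hold an ERSE, at bases -64 to -46, -40 to -22 and -179 to -161 from the start. TIN1 (chr5:25784104-25784403, plus strand) holds UPRE at -133 to -126 and at -69 to -62. None of these 4 genes passed in bzip28/60. They are the only panel genes with either element in the window. Panel genes without it, such as CRT1B, ERDJ3B, OS9, GPT, SEC31A, ARFA1D and NAC103, did not pass either. SEC22 (chr1:4010457-4010756, plus strand), which rose, holds a UPRE at -137 to -130, and BIP1 (chr5:10543559-10543858, minus strand), which rose, holds neither in this window.
PDIL1-2: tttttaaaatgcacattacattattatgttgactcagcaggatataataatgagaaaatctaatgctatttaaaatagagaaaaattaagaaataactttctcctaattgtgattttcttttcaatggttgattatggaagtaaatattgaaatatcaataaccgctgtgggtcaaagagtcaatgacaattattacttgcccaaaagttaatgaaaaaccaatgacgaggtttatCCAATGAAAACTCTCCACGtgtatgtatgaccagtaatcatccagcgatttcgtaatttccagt
HRD3A: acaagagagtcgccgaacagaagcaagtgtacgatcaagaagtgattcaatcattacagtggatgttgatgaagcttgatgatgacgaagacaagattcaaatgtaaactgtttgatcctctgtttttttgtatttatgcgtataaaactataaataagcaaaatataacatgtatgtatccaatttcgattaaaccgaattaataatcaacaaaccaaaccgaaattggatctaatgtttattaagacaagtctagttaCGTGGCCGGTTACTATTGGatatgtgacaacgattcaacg
BI1: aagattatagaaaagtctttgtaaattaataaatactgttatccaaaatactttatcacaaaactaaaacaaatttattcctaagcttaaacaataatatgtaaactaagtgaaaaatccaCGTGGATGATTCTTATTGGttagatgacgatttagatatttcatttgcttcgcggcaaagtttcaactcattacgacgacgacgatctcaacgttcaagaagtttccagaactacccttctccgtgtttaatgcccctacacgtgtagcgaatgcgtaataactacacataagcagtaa
TIN1: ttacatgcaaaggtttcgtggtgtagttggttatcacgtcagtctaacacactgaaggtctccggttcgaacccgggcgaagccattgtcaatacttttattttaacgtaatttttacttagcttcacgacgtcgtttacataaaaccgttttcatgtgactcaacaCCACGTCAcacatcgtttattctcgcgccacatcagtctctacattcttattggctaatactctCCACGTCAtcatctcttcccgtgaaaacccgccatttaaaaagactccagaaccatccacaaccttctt
SEC22: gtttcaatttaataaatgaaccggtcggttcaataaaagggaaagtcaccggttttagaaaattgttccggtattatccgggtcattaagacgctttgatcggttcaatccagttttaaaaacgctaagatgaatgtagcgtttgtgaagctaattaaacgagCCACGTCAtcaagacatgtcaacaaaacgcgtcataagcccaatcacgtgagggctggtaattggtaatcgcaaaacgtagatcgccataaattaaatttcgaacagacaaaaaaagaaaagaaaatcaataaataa
BIP1: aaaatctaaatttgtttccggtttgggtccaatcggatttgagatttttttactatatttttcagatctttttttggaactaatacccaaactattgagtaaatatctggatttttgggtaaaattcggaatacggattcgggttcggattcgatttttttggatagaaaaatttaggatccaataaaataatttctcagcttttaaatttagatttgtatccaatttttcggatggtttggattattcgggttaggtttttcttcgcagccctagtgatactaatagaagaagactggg

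Over all genes tested with an upstream window, ERSE was found in 0.484% and UPRE in 1.81%. Among the genes that rose in WT with a lower response in bzip28/60 the shares were 4.71% and 5.76%, or 9 and 11 of 191 windows. Among the genes that rose in bzip28/60 they were 1.1% and 3.3%, or 1 and 3 of 91, and among the 161 that fell both were 0. The palindrome CACGTG, which can overlap ERSE as it does in PDIL1-2 and BI1, was found in 7.93% of all windows, 16.8% of the first set, 6.59% of the second and 3.73% of the third. The W-box core TTGACC, known to be bound by WRKY factors, was in 13.8% of all windows and 18.7% of those of genes that rose in bzip28/60. These matches describe the letters of the windows and are not binding sites.

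The wider ER machinery was counted over gene lists, beside 0.887% of all genes tested that rose and 1.54% that fell. Of 7 tested BiP and cochaperone genes 1 rose (median 0.16, against 2.06 in WT), and of 5 genes of the calnexin cycle and its sugar supply 2 rose (median 0.72, against 2.77). Beside these, the median over all genes tested was 0.01. Of 8 genes of ER-associated degradation, 9 of N-glycosylation and 7 UPR regulators 0 changed, with medians of -0.08, -0.25 and -0.11. Of 14 translocon and signal peptidase genes 1 rose. Of 12 genes of transport between the ER and the Golgi 1 rose, SEC22 (AT1G11890), a SNARE of vesicle fusion. It stood at 25.8, 24.7 and 22.6 CPM under mock and at 38.9, 37.5 and 40.7 CPM with Tm, without overlap (0.68 ± 0.17, adjusted p = 0.0135), a call lost without bzip28/60 mock 3, Tm 1 or Tm 3 (adjusted p up to 0.0834).

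One member of the folding machinery went the other way. Of 12 disulfide isomerase and ERO1 genes 0 rose and 1 fell (median -0.19, against 0.95 in WT), the isomerase PDIL1-3 (AT3G54960). It stood at 22.7, 25.2 and 26.8 CPM under mock and at 8.56, 8.90 and 10.6 CPM with Tm. It fell by 1.41 on the log2 scale ± 0.24 (adjusted p = 0.000152), whereas in WT it went from 15.9 to 29.6 CPM to 48.5 to 81.7 CPM (1.41 ± 0.21). The responses differed by -2.81 ± 0.32 (adjusted p = 5.92e-08), and in neither genotype did the libraries overlap. Of 343 list members 100 were not tested for want of counts, 90 of which have several transcript models, among them BIP2, BIP3, ERDJ3A, PDIL2-1 and IRE1B at 0 counts in all 6 libraries. Reads that several models share were set aside in the deposited counts, so a 0 here does not show that the gene is silent.

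The genes that rose most in bzip28/60 were mostly outside the ER machinery. PUB54 (AT1G01680), a U-box protein of the ubiquitin ligase type, had 0, 1 and 1 counts under mock and 27, 13 and 23 with Tm (31.2-fold higher, 95% counting interval 8.30 to 264). It also rose in WT by 2.46 ± 0.54, and the difference was not called. BAP2 (AT2G45760), a C2-domain protein known to restrain cell death, went from 1.1 ± 1.58 CPM (SD, n = 3) to 15.3 ± 3.61 CPM (SD, n = 3; edgeR, 3.86 ± 0.57, adjusted p = 9.56e-06). AT1G53625, an uncharacterized protein and the most abundant of the 12 largest rises, went from 66.9, 61.6 and 90.0 CPM to 510.1, 494 and 383 CPM (2.66 ± 0.25, adjusted p = 5.44e-10), with 2.57 ± 0.24 in WT. Its neighbour in name AT1G53620 rose by 2.52 ± 0.38 and AT1G21525 by 3.66 ± 0.39, and in WT by 2.56 ± 0.43 and 3.63 ± 0.36. For these 3 the difference from WT was -0.04 to 0.09, with approximate standard errors of 0.33 to 0.62, which are unreliable this near 0.

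Regulators of stress and defence stood among the other large rises. ZAT11 (AT2G37430), a zinc finger factor, went from 0.782, 1.46 and 0 CPM to 6.23, 6.09 and 7.63 CPM (3.11 ± 0.66, adjusted p = 0.00311). WRKY18 (AT4G31800), a transcription factor of basal defence, went from 1.17, 0.970 and 1.26 CPM to 7.78, 4.68 and 6.78 CPM (2.44 ± 0.57, adjusted p = 0.00851). Its call was lost without bzip28/60 mock 1 or Tm 1 (adjusted p up to 0.067). AT5G41750, an immune receptor of the TIR-NBS-LRR class, went from 0.782 to 2.43 CPM to 6.78 to 8.17 CPM (2.21 ± 0.50, adjusted p = 0.00675, up to 0.0826 without mock 1). The groups of all 3 did not overlap. AATP1 (AT5G40010), an AAA-type ATPase, went from 14.1 to 19.7 CPM to 61.8 to 76.7 CPM (2.08 ± 0.21, adjusted p = 3.78e-09), and AT1G13480 of the DUF1262 family from 13.6 to 19.3 CPM to 51.3 to 89.5 CPM (2.04 ± 0.20). AT5G25260, a membrane protein of the flotillin type, rose by 2.33 ± 0.41.

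**Figure D3:**
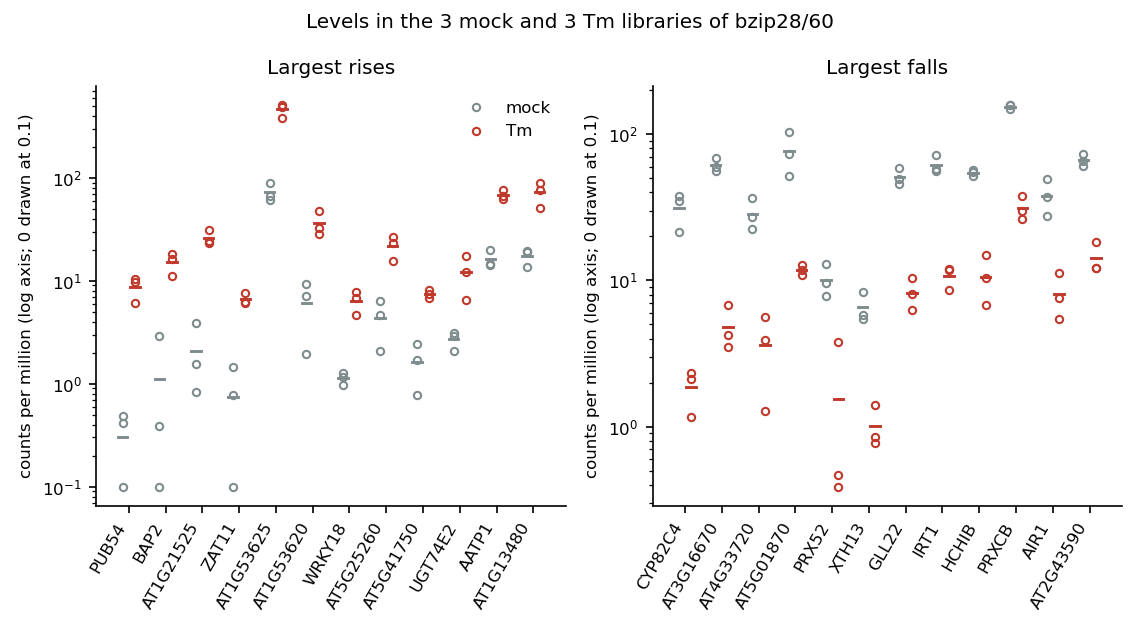
CPM (log axis) of the 12 largest rises (left) and the 12 largest falls (right) in each of the 3 mock and 3 Tm libraries of bzip28/60, with bars at the group means. No gene shown has overlapping groups, which the choice of these genes required.

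For 25 of the 93 genes that rose in bzip28/60 the response was higher than in WT, and for 7 it was lower, beside 2.09% and 2.15% of all genes tested. The 93 were chosen by their value in bzip28/60, which enters the difference and sets part of these counts. FLOT1 (AT5G25250), a flotillin of membrane microdomains, stood at 21.9, 23.3 and 23.9 CPM under mock and at 77.0, 77.3 and 61.9 CPM with Tm, while WT gave 35.1 to 76.0 CPM and 46.3 to 70.1 CPM. Its response was higher than in WT by 1.69 ± 0.37 (adjusted p = 0.00409). ZAT12 (AT5G59820), a zinc finger factor of the oxidative stress response, went from 27.0, 24.7 and 27.6 CPM to 80.5, 97.0 and 81.8 CPM, and WT held 22.9 to 54.6 CPM and 38.5 to 61.1 CPM (difference 1.47 ± 0.32, adjusted p = 0.00396). Hsp70-2 (AT5G02490), a cytosolic Hsp70, rose by 1.2 ± 0.25 here (adjusted p = 0.00311, 0.0512 without Tm 1) and fell by 0.99 ± 0.27 in WT (adjusted p = 0.00873). The gene AT2G38250, with a homeodomain-like fold, rose by 1.15 ± 0.32 here and fell by 1.41 ± 0.34 in WT, a rise lost without any 1 library of bzip28/60 but mock 2 (adjusted p up to 0.28).

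The mock levels of these genes were then read. The same mock libraries enter the response, so the values are a description and not a separate test. Of these 25 genes 24 had a lower mean mock level in bzip28/60 than in WT, and in 14, or 56.0%, all mock libraries of bzip28/60 lay below all of WT, against 12.7% of all genes tested. With Tm the mean of 19 of the 25 was at or above the WT mock mean, beside 84 of the 93 that rose and 5292 of 10480 genes tested. For ZAT11 the values were 6.13 to 7.30 CPM in WT mock, 0 to 1.46 CPM in bzip28/60 mock and 6.09 to 7.63 CPM in bzip28/60 Tm. Among all 93 genes that rose, 84.9% had a mock mean below that of WT, against 5236 of 10480 genes tested, and among the 161 that fell 24.8% did. WT mock libraries had 4.01 to 4.49% of reads on no feature and bzip28/60 mock libraries 2.86 to 3.08%. No label names a batch, and differences between genotypes and between batches of libraries cannot be told apart.

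Stress genes outside the ER were counted in the same way, beside the 0.887% of all genes tested that rose. Of 12 mitochondrial and oxidative stress genes 2 rose, ZAT12 and UGT74E2 (AT1G05680), an enzyme that conjugates auxin precursors, which went from 2.09 to 3.13 CPM to 17.5, 6.56 and 12.3 CPM (2.16 ± 0.52, adjusted p = 0.0114, up to 0.147 without mock 3 or Tm 1). Of 9 jasmonate genes 2 rose and in WT 4 fell, beside 8.26% of all genes tested that fell there. LOX4 (AT1G72520), a lipoxygenase of jasmonate synthesis, went from 0.782, 0.970 and 1.26 CPM to 5.06, 5.62 and 4.24 CPM (2.24 ± 0.62, adjusted p = 0.0401). Its call was lost with limma-voom and when any 1 of the 6 libraries was left out (adjusted p up to 0.191). CYP94C1 (AT2G27690), which inactivates the active jasmonate, rose by 1.91 ± 0.31 (adjusted p = 4.39e-05). Of 16 glutathione transferases 2 rose, GSTF7 (AT1G02920) by 0.99 ± 0.22 and GSTU8 (AT3G09270) by 0.77 ± 0.18, the latter with an adjusted p of 0.00776 and up to 0.0533 without mock 1 or Tm 3. NHL10 (AT2G35980), a gene of pattern-triggered immunity, was the only one of 15 in its list to rise, by 1.78 ± 0.40 (adjusted p = 0.00689, 0.0967 without mock 1).

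The 23 tested heat shock genes gave 0 calls in bzip28/60 (median 0.27), where 13 fell in WT (median -1.78), beside 8.26% of all genes tested. Of the 23, 10 had a higher response in bzip28/60 than in WT, beside 2.09% of all genes. In bzip17/60 the list gave 0 calls (median 0.06), and in bzip17/28 1 rose and 1 fell (median -0.18). Over all genes tested, 1210 had an unadjusted p under 0.05 in bzip28/60. Of 8 autophagy and cell death genes 1 rose, the cargo receptor NBR1 (AT4G24690), from 339.5 to 375 CPM to 507 to 539 CPM (0.51 ± 0.12, adjusted p = 0.0103, up to 0.0849 without mock 2 or Tm 1). The 13 proteasome genes, the 8 abscisic acid genes and the 9 sulfur assimilation genes gave 0 calls, with medians of 0.14, 0.24 and 0.04. Of 18 photosynthesis genes only RBCS1B (AT5G38430), a Rubisco subunit that shares sequence with its close paralogs, rose, by 2.02 ± 0.50 from 1.17 to 2.93 CPM (adjusted p = 0.0156, up to 0.148 without mock 1, mock 2, Tm 1 or Tm 3).

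The genes that fell formed the larger and side of the response. AT3G16670, a protein of the pollen Ole e 1 family, went from 59.5, 56.3 and 68.3 CPM to 3.5, 4.22 and 6.78 CPM. It fell by 3.65 on the log2 scale ± 0.27 (adjusted p = 2.06e-12), further than in WT (difference -2.45 ± 0.40, adjusted p = 0.000115). GLL22 (AT1G54000), a GDSL lipase-like protein, went from 45.8, 58.7 and 49.0 CPM to 6.23, 10.3 and 8.05 CPM (-2.65 ± 0.27), and its fall was also deeper than in WT (-1.83 ± 0.38, adjusted p = 0.00266). PRXCB (AT3G49120), a peroxidase of the cell wall oxidative burst, went from 158, 148 and 157 CPM to 30.0, 26.2 and 37.7 CPM (-2.30 ± 0.18, adjusted p = 2.82e-12), and in WT it fell by 2.35 ± 0.19. HCHIB (AT3G12500), a basic chitinase, went from 51.5 to 57.2 CPM to 6.78 to 14.8 CPM (-2.34 ± 0.24). CYP82C4 (AT4G31940), a cytochrome P450 of the coumarin pathway for iron uptake, had the deepest fall, from 21.5, 37.8 and 34.8 CPM to 1.17, 2.34 and 2.12 CPM (-4.03 ± 0.45, adjusted p = 3.21e-08). None of these genes had overlapping groups.

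Grouped by the product names of the reference annotation, in families picked after the results were seen and so given as counts only, several families of secreted and membrane proteins held many falls. Of 48 class III peroxidases, enzymes of the cell wall, 17 fell and 0 rose (median -0.73), beside 1.54% of all genes tested that fell. PRX52 (AT5G05340), which takes part in lignin formation, went from 7.76 to 12.9 CPM to 0.389 to 3.81 CPM (-2.66 ± 0.52). Of 11 chitinases 5 fell (median -0.99), and all 11 had a negative value. Of 9 proteins of the CAP family, to which the defence protein PR-1 belongs, 4 fell (median -1.12), led by AT4G33720 (-3.0 ± 0.36). Of 19 aquaporins, the water channels of the plasma membrane and the vacuole, 8 fell (median -0.52), and of 8 mannose-binding lectins 4 fell. In WT the same families had 13, 4, 2, 4 and 3 members that fell, beside 8.26% of all genes tested that fell there. On the other side, 3 of 22 TIR-NBS receptors, 3 of 29 C2H2 zinc finger proteins and 2 of 4 DUF1262 proteins rose, beside 0.887% of all genes tested that rose. Of 234 genes named as ribosomal proteins 1 fell (median -0.05).

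**Figure D4:**
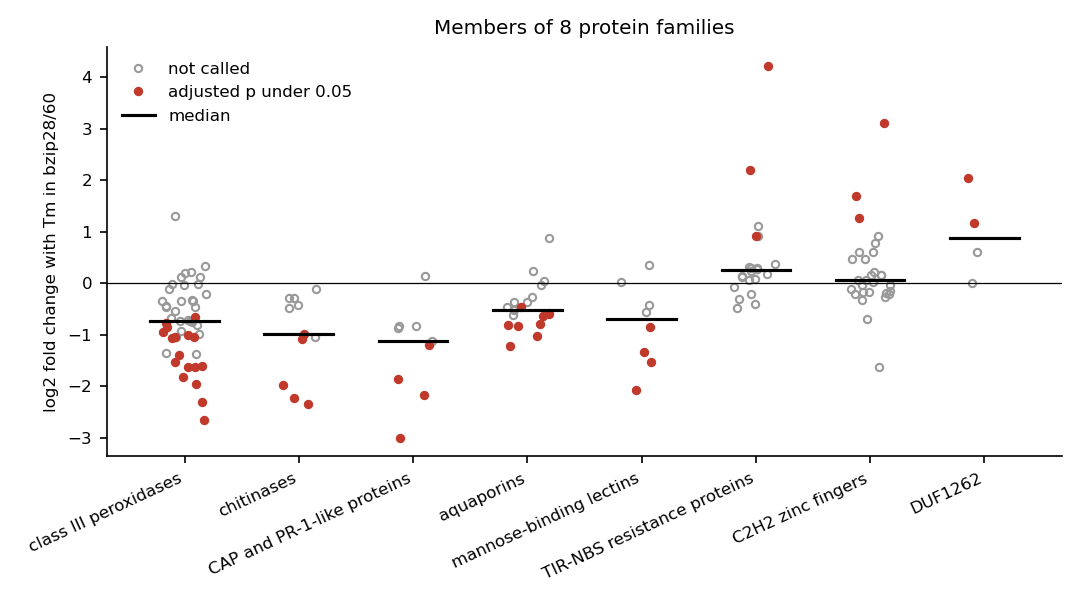
Log2 fold change with Tm in bzip28/60 of each tested member (points) of 8 protein families picked after the results were seen, filled where the adjusted p was under 0.05, with the family median as a bar. The called peroxidases, chitinases, CAP proteins, aquaporins and lectins lie below zero, and the called TIR-NBS, C2H2 and DUF1262 proteins above it.

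Genes known from root cells were read as a list, since whole seedlings were sampled. All 16 tested genes of a root cell list had negative values, between -2.53 and -0.23 (median -0.86), beside 5093 of 10480 genes tested with a negative value. Of the 16, 3 fell, beside 1.54% of all genes tested. The 3 were the iron transporter IRT1 (AT4G19690), from 55.9, 71.8 and 58.2 CPM to 8.56, 11.7 and 11.9 CPM (-2.53 ± 0.37, adjusted p = 9.68e-06), the root hair protein COBL9 (AT5G49270, -1.16 ± 0.29) and the aquaporin TIP2;3 (AT5G47450, -1.03 ± 0.28). COBL9 lost its call with DESeq2 and without mock 1, Tm 1 or Tm 3 (adjusted p up to 0.131), and TIP2;3 without mock 1, mock 2, Tm 1 or Tm 2 (up to 0.247). The summed level of the list was 377 to 481 CPM under mock and 229 to 256 CPM with Tm, without overlap, and the shoot markers summed to 17966 to 19018 CPM and 16020.4 to 17029.9 CPM. The 4 root markers with counts had values between -0.92 and -0.50 and did not pass. In whole seedlings fewer root cells and less RNA per root cell cannot be told apart, and the part of root material in the falls was not tested.

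The proteins encoded by the falling genes shared a feature that the comparison did not use. A hydrophobic stretch was scored where the mean Kyte-Doolittle hydropathy of 19 residues in a row reached 1.6 in the longest annotated protein, which takes in both signal peptides and membrane helices. Such a stretch was present in 146 of the 161 genes that fell in bzip28/60, or 90.7%, against 38.3% of all genes tested and 31.9% of those that rose. Within the first 40 residues, where signal peptides lie, the shares were 71.4%, 17.5% and 14.3%. At a stricter hydropathy of 2.0 they were 60.2% of the genes that fell and 24.4% of all genes. The genes that fell in both bzip28/60 and WT and those not called in WT had shares of 92.2% and 88.9%. The 866 genes that fell in WT as a whole had 47.1%, and the 783 of them not called in bzip28/60 had 42.7%. The genes that fell in bzip17/60 and in bzip17/28 had 81.3% and 76.1%. Genes of 1 family share sequence, so these shares are descriptions without a test.

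**Figure D5:**
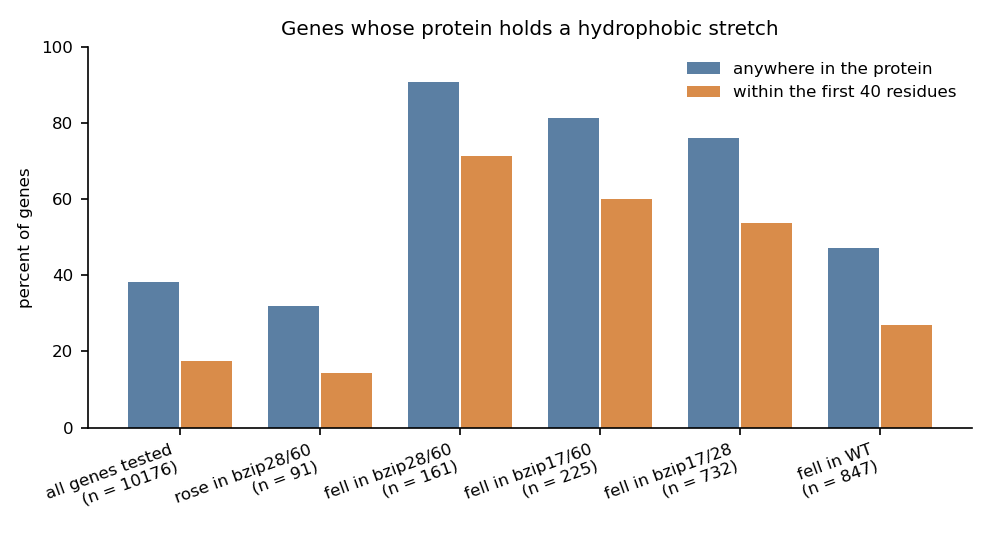
Share of genes (percent, from 0) whose protein has a hydrophobic stretch anywhere or within its first 40 residues, for all genes tested, for the genes that rose in bzip28/60 and for those that fell in bzip28/60, bzip17/60, bzip17/28 and WT. The genes that fell in bzip28/60 reach 90.7% and 71.4%, all genes 38.3% and 17.5%.

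Secreted and cell wall proteins were also counted as a list. Of 15 such genes 1 fell, beside 1.54% of all genes tested, the pectin methylesterase PME3 (AT3G14310), from 987, 1128 and 1259 CPM to 699, 703 and 604 CPM (-0.75 ± 0.15, adjusted p = 0.00162), and the median of the list was -0.20. Of 7 phospholipid genes 1 fell, the acyltransferase GPAT9 (AT5G60620), from 58.2 to 62.2 CPM to 35.8 to 51.5 CPM (-0.50 ± 0.14, adjusted p = 0.0408), a call lost without any 1 of the libraries but Tm 2 (adjusted p up to 0.333). The call was also lost with scaling by library size alone and without the filter on low counts.

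The response was then set against the double mutants that share a lost factor. Against bzip17/60, which also lacks bZIP60 and keeps bZIP28, 26 genes or 0.248% differed, 23 with a lower (0.219%) and 3 with a higher response (0.0286%) in bzip28/60. The 23 included 11 of the panel, among them BIP1 (-2.02 ± 0.20), CNX1, CRT1B, ERDJ3B, PDIL1-2, UTR1 and UTR3. The 3 were CSLE1 (AT1G55850), a cellulose synthase-like protein (1.07, adjusted p = 0.0024), SAUR36 (AT2G45210), of an auxin-responsive family (1.16, adjusted p = 0.0436) and AT1G54740 (1.11, adjusted p = 0.0204), named after their values were seen because they were few. In bzip28/60 itself SAUR36 rose (0.97, adjusted p = 0.000459) and AT1G54740 did not pass (0.19, adjusted p = 0.766). The rise of CSLE1 there (0.50, adjusted p = 0.0408) was lost in 7 of 16 alternatives. The count of 26 and its lean to lower responses depended on the processing. Without bzip17/60 Tm 2, 58 genes were higher and 36 lower, without the filter on low counts 84 and 49, with limma-voom 39 and 32, with DESeq2 23 and 30, without the WT Tm libraries 20 and 31, and with only the libraries of the comparison 34 and 35. Only 1 gene was higher without bzip17/60 mock 3 or Tm 1, or without bzip28/60 mock 2, Tm 1 or Tm 2. Scaling by library size alone left 2. Against bzip17/28, which also lacks bZIP28 and keeps bZIP60, 258 genes or 2.46% differed, 124 with a higher (1.18%) and 134 with a lower response (1.28%) in bzip28/60. The lower ones held 20 of the 21 panel genes, all but SAR1A.

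The called genes were read in the other genotypes, each with its own mock libraries. Of the 161 genes that fell in bzip28/60, 157 had a negative value in bzip17/60 and 153 in bzip17/28, where 92 and 124 passed as fallen, beside 2.16% and 7.0% of all genes tested. In all, 3.2% and 11.6% of genes were called in these genotypes. The difference between the responses was called for 1 of the 161 against bzip17/60, for 15 against bzip17/28 and for 22 against WT. Over all genes tested it was called for 0.248%, 2.46% and 4.24%. Of the 93 that rose, 34 also rose in bzip17/60 and 48 in bzip17/28, beside 1.04% and 4.59% of all genes, and the difference was called for 7, 29 and 32. The 161 and the 93 were chosen by the response of bzip28/60, which enters each difference and sets part of these counts. WRKY18 (-0.84 ± 0.72 and -0.32 ± 0.40), ZAT11 (-0.29 ± 0.49 and 0.52 ± 0.36) and UGT74E2 (-0.18 ± 0.49 and 0.20 ± 0.31) were not called in bzip17/60 and bzip17/28. In the test of the difference from bzip28/60, WRKY18 passed against bzip17/28 (2.77 ± 0.70, adjusted p = 0.0185) and not against bzip17/60 (adjusted p = 0.164), ZAT11 passed against neither (adjusted p = 0.0716 and 0.0685) and UGT74E2 against neither (adjusted p = 0.231 and 0.0885). AATP1 rose in both (1.84 ± 0.19 and 2.0 ± 0.21). For PRXCB the values in bzip28/60, bzip17/60, bzip17/28 and WT were -2.30, -2.12, -1.49 and -2.35.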

How the data were processed

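The authors deposited, for each library, counts of reads per transcript model, with separate lines for reads set aside. Per the submitters' processing notes, HTSeq 0.6.0, SAMtools, TopHat2 2.1.1 and Trim Galore 0.2.8 were used. The genome build, annotation release and strand setting are not given in the sources used here. Reads that fit several models of a locus appear to be among those set aside as ambiguous, 38.9 to 40.4% of reads in the 6 bzip28/60 libraries, and those on no feature were 2.86 to 3.08%. Genes with several models are therefore undercounted. The deposited counts of 58699 models were summed to 37336 loci, and 93.0 to 93.4% of the counts lay on loci with 1 model. Over all 36 libraries depth was 1278322 to 2810235 counts.

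The main test was edgeR 4.0.16 (R 4.3.3), with TMM factors, filterByExpr at a minimum count of 10 and 1 quasi-likelihood fit of the 36 libraries by group with 24 residual degrees of freedom. Responses were compared by the difference of fold changes. The Benjamini-Hochberg adjustment ran over 10480 genes, with a threshold of 0.05. No 2 repeats held identical counts. On simulated data with this design for the bzip28/60 comparison of 10480 genes, 58% of genes at a log2 change of 1 and 96% at 2 were recovered, and 4.35% of calls were false. The changed genes were drawn only from those above a minimum mean count in the bzip28/60 libraries, so recovery below it was not tested. The simulation gave every group the same spread, while the real groups ranged from 5.59 to 28.2%. These rates therefore may not hold for the real libraries. Ratios of low counts carry exact 95% intervals for counting error only.

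Named genes were those with no overlap between libraries and at least 5 CPM, the 12 largest rises and the 12 largest falls, the 3 lowest p per gene list, the panel, the genotype genes and the 8 lowest p among genes with a higher response than WT. The members, gene lists and tests were chosen with earlier results of these data known, and families, mock levels and hydrophobic stretches after the results were seen. Alternatives used DESeq2 1.42.0, limma 3.58.1, other scalings, filters and sets of libraries.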

Additional observations from a re-analysis of the deposited data

Results flagged for a closer look

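Of the 69 named genes, 41 had a Tm response that differed between bzip28/60 and WT at an adjusted p under 0.05 in edgeR's test of the difference of log2 fold changes. The response of bzip28/60 minus that of WT was -5.30 for ARFA1D, -5.10 for NAC103, -4.79 for SEC31A, -4.31 for TIN1, -3.15 for PDIL1-2, -2.96 for CRT1B, -2.81 for PDIL1-3 and -2.68 for BZIP60. Further lower responses were -2.60 for ERDJ3B, -2.45 for AT3G16670, -2.33 for OS9, -2.19 for PDIL2-3, -2.15 for BIP1, -2.11 for AT3G05230, -2.03 for UTR3 and -2.01 for CNX1. The next differences were -1.89 for HRD3A, -1.85 for GPT, -1.83 for GLL22, -1.73 for SDF2, -1.71 for DER2.1, -1.51 for UTR1, -1.37 for BI1 and -1.22 for HCHIB. The last negative differences were -0.93 for AT5G50460 and -0.84 for SEC22. Positive differences were 3.82 for LOX4, 3.45 for UGT74E2, 3.29 for ZAT11, 2.62 for AT5G41750, 2.55 for AT2G38250, 2.19 for Hsp70-2, 1.69 for FLOT1 and 1.57 for CYP94C1. Others above zero were 1.48 for NIP2, 1.47 for ZAT12, 1.39 for AT1G76600, 1.29 for PP2-B1, 1.17 for AATP1, 1.06 for GSTU8 and 1.03 for CSLE1. Several of these calls depended on the setting. Over 19 to 21 alternatives each, SEC22 lost its call in 13 (adjusted p up to 0.135), HCHIB in 11 (up to 0.175), NAC103 in 11 (up to 0.911), AATP1 in 10 (up to 0.094), CYP94C1 in 10 (up to 0.131), AT5G41750 in 8 (up to 0.142) and GSTU8 in 7 (up to 0.117). ZAT11 lost it in 4, AT3G05230 in 3, and UGT74E2, SEC31A, CSLE1, LOX4, PP2-B1, NIP2 and TIN1 in 1 each.

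Against bzip17/60, 13 of the 69 differed. The difference was -2.69 for ERDJ3B, -2.45 for UTR1, -2.27 for CRT1B, -2.19 for PDIL1-2, -2.18 for CNX1, -2.10 for PDIL1-3, -2.06 for UTR3 and -2.02 for BIP1. It was also -1.75 for SDF2, -1.13 for HRD3A, -1.02 for AT5G50460 and -0.93 for PDIL2-3. It was positive, at 1.16 for SAUR36, 1.11 for AT1G54740 and 1.07 for CSLE1. AT1G54740 and SAUR36 are outside the 69 and were chosen after their values were seen.

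Against bzip17/28, 39 of the 69 differed. The negative differences were -6.04 for NAC103, -5.54 for TIN1, -4.99 for ARFA1D, -4.5 for SEC31A, -3.19 for PDIL1-3, -2.94 for BZIP60, -2.93 for PDIL1-2 and -2.84 for PDIL2-3. Further negative values were -2.79 for CNX1, -2.56 for BI1, -2.46 for OS9, -2.43 for ERDJ3B, -2.38 for HRD3A, -2.28 for AT3G05230, -2.25 for BIP1 and -2.23 for AIR1. Others below zero were -2.23 for DER2.1, -2.05 for GPT, -1.92 for AT4G33720, -1.71 for UTR3, -1.61 for PP2-B1, -1.44 for UTR1, -1.41 for NIP2 and -1.37 for AT5G50460. The remaining negative ones were -1.21 for NBR1, -1.20 for SEC22, -1.05 for SDF2 and -1.03 for CRT1B. The positive differences were 3.93 for PUB54, 3.15 for BAP2, 2.96 for RBCS1B, 2.77 for WRKY18, 2.75 for AT1G21525, 2.35 for AT5G25260, 1.51 for TIP2;3 and 1.5 for AT1G53625. Also above zero were 1.45 for FLOT1, 1.44 for CSLE1 and 0.85 for PME3. A positive difference did not always mean a higher level with Tm in bzip28/60. Mean mock levels in bzip17/28 and bzip28/60 were 6.27 and 0.301 CPM for PUB54 and 16.4 and 1.1 CPM for BAP2. They were 20.6 and 2.09 CPM for AT1G21525 and 56.3 and 4.36 CPM for AT5G25260. In that order, the Tm means were 10.7 and 8.78, 26.6 and 15.3, 38.9 and 26.1, and 55.4 and 21.9 CPM. For others, such as RBCS1B (3.41 and 8.21 CPM), bzip28/60 was the higher with Tm.

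In data outside the comparisons, the share of reads set aside as ambiguous was 40.1, 40.2 and 40.4% in the Tm libraries of bzip28/60, above each of its mock libraries at 38.9, 39.5 and 38.9%. Its part in the results was not tested.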

How the results depend on the processing

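Scaling by relative log expression or library size, leaving out organelle genes, loci with several models or the filter, DESeq2, and leaving out the WT Tm libraries gave 252 to 368 genes changed by Tm in bzip28/60, within 1.5 times of 254. A spread per group in limma-voom gave 554 and a fit of the 6 libraries alone 706. Leaving out 1 library gave 136 to 193. The difference from WT (444) became 204 with limma-voom, 117 with only its own libraries and 239 to 1188 with 1 library left out. The difference from bzip17/60 (26) became 133 without the filter, 53 with DESeq2, 71 with limma-voom, 51 without WT Tm, 69 with only its own libraries and 20 to 94 with 1 library left out. The difference from bzip17/28 (258) became 581 with limma-voom, 628 with only its own libraries and 178 to 230 with 1 library left out. The cause of these shifts was not tested. Of 49 named genes called in bzip28/60, 0 to 3 lost their call under the settings that keep all libraries of the comparison and 5 to 13 when 1 library was left out and 0 changed sign. Among named values that did not pass, 17 had 41 changes of sign. In the bzip28/60 response, library size gave 0.02 for BZIP60 and 0.03 for OS9. With 1 library left out, values ran from -0.21 to 0.09 for BZIP28, -0.13 to 0.03 for BZIP60, -0.16 to 0.03 for ERDJ3B, -0.07 to 0.21 for GPT, -1.72 to 2.46 for NAC103, -0.23 to 0.21 for OS9, -0.17 to 0.03 for PDIL2-3, -1.68 to 0.34 for SEC31A and -0.49 to 0.32 for TIN1. In the difference from WT they ran from -0.34 to 0.73 for AT1G21525, -0.43 to 0.38 for AT1G53620, -0.14 to 0.42 for AT1G53625, -0.35 to 0.53 for BZIP17, -0.40 to 0.16 for GSTF7, -1.01 to 0.67 for IRT1, -1.41 to 0.80 for PRX52 and -0.09 to 0.19 for PRXCB. The difference was 0.24 for AT1G53620, 0.32 for IRT1 and -0.21 for PRX52 with limma-voom, and 0.01 for AT1G53620 without the filter.

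With the replicate number as a block the counts were 246, 419, 26 and 255. Over 7133 genes, same-numbered mock and Tm libraries of bzip28/60 had deviations from their group means correlated at -0.00546, 0.0235 and -0.0772. For libraries with different numbers the values were -0.0499 to 0.0561. No shared effect of the number was seen, which cannot settle whether the repeats were handled as pairs, and the labels do not say. The block changed the call of 1 named gene, NAC103 against WT. The low depth of each library limits genes under a few CPM.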
